A study of Mus musculus with 5 samples.

Results

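The collagen chain genes, which encode the building chains of the collagen family, were described on 5 mouse whole-transcript microarrays. A gene was a member when a probe set of 1 gene carried a platform symbol of the form Col, number, a, number, and the brightest probe set was used. This gave 44 genes on 46 probe sets, out of 19938 genes measured by a probe set of 1 gene. By class, 11 members encode fibrillar chains, 6 the type IV chains of basement membranes, 9 the FACIT chains (collagens that sit on the surface of fibrils), and 18 other collagens.

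Each group had 1 array. The ESC groups, named 2i and S, were mouse embryonic stem cells. The MEF groups, named 4n 2i, 2n 2i and control, were mouse embryonic fibroblasts. Every group was of an F1 background between the 129X1/SvJ and MSM/Ms strains, and the series title concerns female ESCs. In stem cell work 2i is the common short form for blocking the kinases MEK and GSK3, while S, 2n and 4n, which no label explains, serve as names only. Neither an age nor a treatment is given. Sample titles carry numbers, of which the leading one was shared by 2i ESCs and 2n MEFs (15) and differed for S ESCs (36), 4n MEFs (2) and control MEFs (4). No label says that samples came from separate cultures or embryos, so p-values measure only the spread between these arrays.

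Collagen chains associate in groups of a fixed number in the endoplasmic reticulum and wind into a stiff helix, after prolines and lysines have been hydroxylated. Fibrillar procollagens are trimmed outside the cell, packed into fibrils and crosslinked, and give connective tissue its tensile strength. Type IV collagen forms the sheet of basement membranes together with laminins and nidogens. Fibroblasts are the main source of fibrillar collagen, while early embryonic cells rest on basement membrane.

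Values are the deposited intensities, or log2 of the intensity plus 1. A probe set's brightness is compared between arrays only, never with that of another gene. A floor was set on each array at the median of its probe sets of 1 gene, between 222 and 242 intensity units. Values under it hold an unknown share of background, so folds against them depend on that background. The cell type labels were checked against markers. The 12 ES cell markers were all past the floor on both ESC arrays, and 1 of them (Klf2) was so on the MEF arrays. Of 13 fibroblast markers, 3 reached it on the 2i ESC array, 6 on the S ESC array, 13 on the 4n and on the 2n MEF arrays and 12 on the control MEF array. Many deposited values were identical between MEF arrays. Of the 44 collagen chain genes, 20 had the same value on at least 2 MEF arrays and 8 on all 3, so a difference of exactly 0 there is not read as measured equality.

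Collagen chain genes reached the floor far more often on MEF than on ESC arrays. Of the 44, 13 reached it on the 2i ESC array and 11 on the S ESC array, against 31 on the 4n, 29 on the 2n and 27 on the control MEF array. Over all 19938 genes the numbers were nearly level, at 9931 and 9924 on the ESC arrays and 9896, 9918 and 9902 on the MEF arrays. In the collagen family, 13 members reached the floor on every MEF array and on neither ESC array, 9 on all 5 arrays and 12 on none. These patterns across arrays were not counted over all genes. One member, the FACIT gene Col20a1, reached it on an ESC array and on no MEF array, at 265 intensity units in 2i ESCs.

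**Figure D1:**
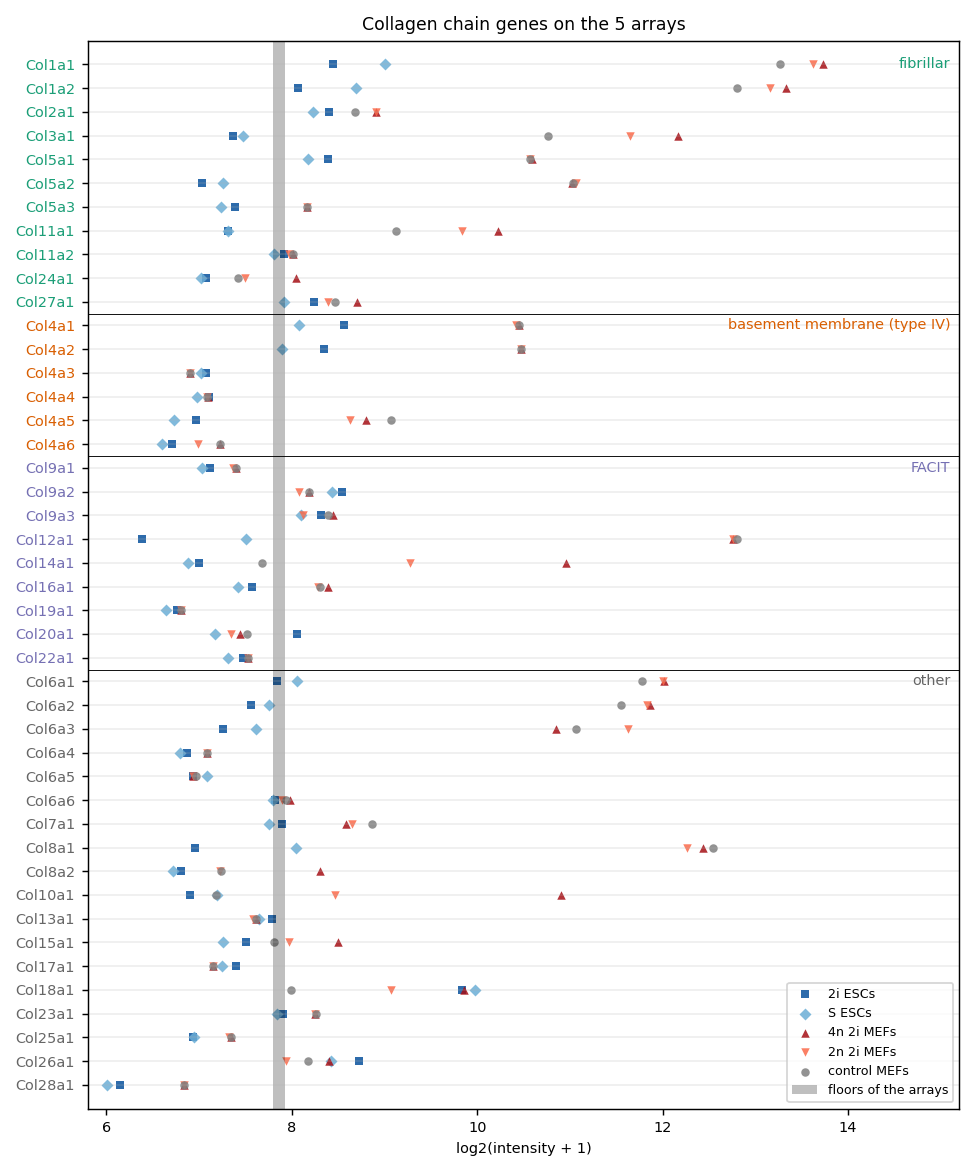
Log2(intensity + 1) of the 44 collagen chain genes (rows, by class) on the 5 arrays (symbols), with the range of the floors shaded. Positions are to be compared within a row, and the rows of Col1a1, Col1a2, Col8a1 and Col12a1 show the widest gaps between ESC and MEF arrays.

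The contrast of ESCs with MEFs asks which collagens separate the cell types, and it is the only one with more than 1 array on each side. In ESCs 14 collagen chain genes were lower and none was higher. They were the main chains of types I, III, V and VI, the type IV genes Col4a1, Col4a2 and Col4a5, and Col8a1, Col11a1 and Col12a1. The test was limma on 2 ESC and 3 MEF arrays, across 11799 genes that reached the floor, and a call needed an adjusted p (Benjamini-Hochberg) below 0.05 together with a change of 2-fold or more. Of those genes 16.3% were lower in ESCs and 16.7% higher, against 14 and 0 of the 32 collagen chain genes tested. In limma 1 member, Col9a2, was higher in ESCs at an unadjusted p under 0.05, by less than 2-fold. The 32 had a median log2 difference of -1.34, against 0.06 for all genes tested. Of the 14, 7 were under the floor on both ESC arrays and entered through the MEF arrays. Members that passed the floor only where they are bright had to differ, so neither the count nor the median is support for a direction of the family.

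Among fibrillar chains, all 11 reached the floor on some array, and 6 of them were lower in ESCs. Col1a1 (Entrez Gene 12842), which encodes the major chain of type I collagen, had 349 and 512 intensity units in 2i and S ESCs, against 13561, 12632 and 9870.1 in 4n, 2n and control MEFs. The ESC arrays lay far under every MEF array without overlap. In log2 terms Col1a1 stood at 8.73 ± 0.39 in ESCs (SD, n = 2) and 13.54 ± 0.24 in MEFs (SD, n = 3), 28.1-fold lower in ESCs with an adjusted p of 0.000404 in limma.

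Col1a2 (Entrez Gene 12843), whose product is the partner chain of type I collagen, had 268 and 414 units in 2i and S ESCs, against 10296, 9162 and 7163 in 4n, 2n and control MEFs. It was 26.3-fold lower in ESCs (adjusted p = 0.000523 in limma), close to its partner. Both type I chains were still above the floor on both ESC arrays, and both were dimmer on the 2i than on the S array.

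Col3a1, the chain of type III collagen of elastic tissues, had 165 and 177 units in 2i and S ESCs, against 4582, 3196 and 1741 in 4n, 2n and control MEFs. It was 17.1-fold lower in ESCs (adjusted p = 0.00235 in limma), and the MEF arrays themselves spread over more than a 2-fold range. Col5a2, a type V chain, which helps start and limit fibrils, had 129.6 and 152 units in 2i and S ESCs, against 2079, 2144 and 2093 in 4n, 2n and control MEFs. Here the MEF arrays were nearly level, and the gene was 14.9-fold lower in ESCs (adjusted p = 0.000171 in limma). The other main type V chain gene, Col5a1, was above the floor on every array, at 336 and 289 units in 2i and S ESCs against 1539, 1517 and 1517 in 4n, 2n and control MEFs. Its difference was smaller, 4.88-fold (adjusted p = 0.000342 in limma), and 2 of its MEF values were identical.

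Col11a1, a type XI chain best known from cartilage fibrils, had 158 units in each of the ESC groups, against 1191, 911 and 559 in 4n, 2n and control MEFs. It was 5.33-fold lower in ESCs (adjusted p = 0.00521 in limma). Without the 2i ESC array its adjusted p was 0.0659 in limma, and without the S ESC array 0.0667, so that call needed both ESC arrays. The other 5 fibrillar genes did not pass the test. Col2a1, the type II chain of cartilage, had 336 and 298 units in 2i and S ESCs, against 479.9, 480.2 and 409 in 4n, 2n and control MEFs. Col2a1, Col5a3, Col11a2, Col24a1 and Col27a1 had log2 differences between -0.85 (Col5a3) and -0.13 (Col11a2).

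Of the basement membrane chains, 3 of 6 reached the floor, and all 3 were lower in ESCs. Col4a1 and Col4a2, the chains found in nearly all basement membranes, are neighbours on chromosome 8 in RefSeq (assembly GRCm38.p6, the C57BL/6J genome), read in opposite directions. Their annotated start sites lie 21 bases apart, and the windows around the start sites share 78 bases. The sequences are shown because these genes were close in their differences between arrays. They are written 5′ to 3′ on each gene's own strand, as chr8:11312777-11313076 (minus strand) for Col4a1 and chr8:11312555-11312854 (plus strand) for Col4a2. Capitals mark the letters CCAAT or GGGCGG, on either strand.
Col4a1: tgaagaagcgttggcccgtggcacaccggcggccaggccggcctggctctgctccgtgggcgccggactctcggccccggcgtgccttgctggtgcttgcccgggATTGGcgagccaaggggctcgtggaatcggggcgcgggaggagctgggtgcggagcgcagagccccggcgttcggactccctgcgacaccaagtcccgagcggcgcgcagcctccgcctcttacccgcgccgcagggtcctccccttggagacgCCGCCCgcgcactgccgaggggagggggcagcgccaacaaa
Col4a2: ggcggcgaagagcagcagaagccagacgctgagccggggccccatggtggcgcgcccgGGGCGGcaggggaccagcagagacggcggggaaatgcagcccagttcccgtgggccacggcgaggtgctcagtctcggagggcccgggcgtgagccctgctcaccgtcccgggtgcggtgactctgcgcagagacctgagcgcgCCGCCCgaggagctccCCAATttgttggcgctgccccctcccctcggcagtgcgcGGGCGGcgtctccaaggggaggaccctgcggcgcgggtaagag

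Col4a1 had 377 and 269 intensity units in 2i and S ESCs, against 1396, 1372 and 1396 in 4n, 2n and control MEFs. For Col4a2 the values were 325 and 236 in 2i and S ESCs, and 1424 on each MEF array. In both genes the 2i ESC array lay above the S ESC array and the MEF arrays were nearly level or identical. Col4a1 was 4.34-fold lower in ESCs (adjusted p = 0.00107 in limma) and Col4a2 was 5.12-fold lower (adjusted p = 0.000745 in limma).

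The X-linked Col4a5, whose chain is part of the basement membranes of kidney and other tissues, had 124 and 105 units in 2i and S ESCs, against 443, 393 and 537 in 4n, 2n and control MEFs. It was 3.95-fold lower in ESCs (adjusted p = 0.00139 in limma). Its neighbour Col4a6, read in the opposite direction from a start site 1343 bases away, stayed under the floor on all arrays, between 96.1 and 149 units. Col4a3 and Col4a4, another neighbouring pair, were under the floor everywhere as well, between 119 and 137 units. So on the MEF arrays both neighbours Col4a1 and Col4a2 reached the floor, neither Col4a3 nor Col4a4 did, and of the X-linked pair Col4a5 alone did.

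FACIT chains were mostly dim or level, apart from Col12a1 and Col14a1. Col12a1, whose chain bridges type I fibrils, had 82.9 and 181 units in 2i and S ESCs, against 6924, 6924 and 7154 in 4n, 2n and control MEFs. This was the largest difference among the members tested, 56.6-fold lower in ESCs (adjusted p = 0.000591 in limma), with 2 identical MEF values. Col14a1, a relative of Col12a1, had 127 and 117 units in 2i and S ESCs, against 1991, 618 and 205 in 4n, 2n and control MEFs. Its MEF arrays differed from each other more than the control MEF array differed from the ESC arrays, and its log2 difference of -2.36 did not pass the test (adjusted p = 0.104 in limma). Without the control MEF array the difference was -3.18 (adjusted p = 0.0254 in limma), and without the 4n MEF array it was -1.54 (adjusted p = 0.101 in limma).

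Among the cartilage FACIT genes, Col9a2 had 371 and 345 units in 2i and S ESCs, against 291, 269 and 291 in 4n, 2n and control MEFs. It was thus brighter on both ESC arrays than on any MEF array. The log2 difference was only 0.33 (adjusted p = 0.0340 in limma), below the 2-fold threshold. Its partner Col9a3 had 317 and 273 units in 2i and S ESCs, against 346, 279 and 334 in 4n, 2n and control MEFs, so those groups overlapped. Col16a1 had a log2 difference of -0.83. Col9a1, Col19a1 and Col22a1 were under the floor on every array, between 98.8 and 183 units.

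In the remaining class, the type VI and type VIII chains showed the largest gaps. Type VI collagen forms beaded filaments around cells, from the chains of Col6a1, Col6a2 and Col6a3. Col6a1 had 228 and 266 units in 2i and S ESCs, against 4146, 4091 and 3502 in 4n, 2n and control MEFs. Its neighbour Col6a2 had 187 and 215 units in 2i and S ESCs, against 3726, 3651 and 3008 in 4n, 2n and control MEFs. These neighbours on chromosome 10 kept the same order of arrays. Col6a3, on another chromosome, had 153 and 195 units in 2i and S ESCs, against 1849.8, 3167 and 2135 in 4n, 2n and control MEFs. Unlike its partners it was brightest on the 2n array. The differences were 15.8-fold for Col6a1, 17.1-fold for Col6a2 and 13.4-fold for Col6a3, all lower in ESCs, with adjusted p values in limma of 0.000215, 0.000231 and 0.000958. The later-found type VI chains Col6a4 and Col6a5 were under the floor on all arrays, and Col6a6 lay between 222 and 252 units.

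Col8a1, a chain of the network-forming type VIII collagen of vessels and the cornea, had 123 and 264 units in 2i and S ESCs, against 5546, 4920.3 and 5972 in 4n, 2n and control MEFs. It was 30.1-fold lower in ESCs (adjusted p = 0.00087 in limma). Col7a1, which anchors skin to its basement membrane, had 237 and 215 units in 2i and S ESCs, against 382, 400.3 and 467 in 4n, 2n and control MEFs. The groups did not overlap, but the log2 difference of -0.88 was under 2-fold. In all, 5 members had an adjusted p under 0.05 in limma with a deficit of less than 2-fold.

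Col18a1, the source of endostatin and a proteoglycan chain of basement membranes, was the member with the largest excess in ESCs. It had 912 and 1004 units in 2i and S ESCs, against 926, 538 and 253 in 4n, 2n and control MEFs. The 4n MEF array lay between the ESC arrays, and the log2 difference of 0.93 did not pass the test (adjusted p = 0.224 in limma). Col26a1 had 423 and 343 units in 2i and S ESCs, against 336, 244 and 289 in 4n, 2n and control MEFs, with a log2 difference of 0.41 (adjusted p = 0.121 in limma). The membrane-spanning collagens Col13a1, Col17a1 and Col25a1 and the gene Col28a1 were under the floor on all arrays, while Col23a1 had a log2 difference of -0.39. Col15a1, a basement membrane zone collagen and relative of Col18a1, had 181 and 152 units in 2i and S ESCs, against 361, 249 and 223 in 4n, 2n and control MEFs (log2 -0.71, adjusted p = 0.0635 in limma). Col10a1 (log2 -1.80, adjusted p = 0.237 in limma) and Col8a2 (-0.82, adjusted p = 0.131) did not pass either. The difference of Col10a1 was -0.78 without the 4n MEF array (adjusted p = 0.25 in limma) and -2.64 without the control MEF array (adjusted p = 0.0827 in limma). No test of ESCs against MEFs was made for the 12 members under every floor.

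**Figure D2:**
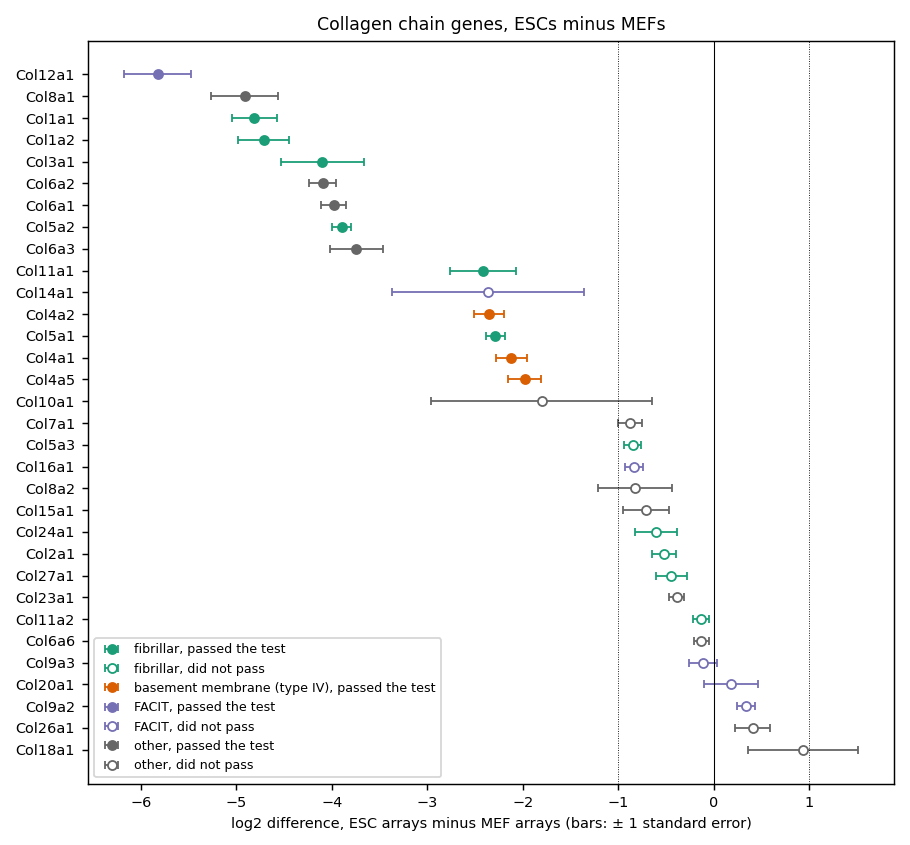
Log2 difference of ESC arrays minus MEF arrays for the 32 collagen chain genes tested (rows), with 1 standard error from limma, coloured by class. The 14 filled symbols passed the test and lie between -5.82 and -1.98, and the wide bars of Col10a1 and Col14a1 come from MEF arrays that differ from each other.

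The limits of this contrast are those of its arrays. The spread is between conditions, and 4 of the 14 genes repeated a value exactly on 2 or 3 MEF arrays. Less RNA per cell and fewer cells that express a gene cannot be told apart in such bulk samples.

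Genes that make, trim, link and bind collagen were lower in ESCs in most lists. Over all genes tested, 16.3% were called lower in ESCs and 16.7% higher. Of 14 tested genes of hydroxylation and glycosylation, 11 were lower in ESCs and none higher. P4ha3, a catalytic subunit of the proline hydroxylase, had 126 and 229 units in 2i and S ESCs, against 4351, 4933 and 5487 in 4n, 2n and control MEFs. It was 28.6-fold lower (adjusted p = 0.000591 in limma), while the shared subunit gene P4hb, also a general protein folding enzyme, had a log2 difference of -0.75. Of 11 genes of chaperones and export 5 were lower, among them Serpinh1 (log2 -2.85), the collagen chaperone HSP47. Tmem38b (0.51, adjusted p = 0.0112 in limma), which encodes an ion channel of the endoplasmic reticulum, was the gene of this list with a positive difference, by less than 2-fold.

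Of 6 tested genes of propeptide cleavage 3 were lower in ESCs, Bmp1 (log2 -3.57), the procollagen C-proteinase, Tll1 (-2.87) and Pcolce (-1.67), while Pcolce2 (1.37, adjusted p = 0.281 in limma) did not pass. Of 4 crosslinking genes 3 were lower, Lox (-5.61), Loxl1 (-4.23) and Loxl3 (-3.04). All 7 tested collagen receptor genes were lower, among them the discoidin receptor gene Ddr2 (-4.08), the uptake receptor gene Mrc2 (-4.25) and the integrin gene Itga11 (-3.98). Median differences of these 5 lists ran from -3.64 (crosslinking) to -0.96 (chaperones and export). Of the genes called lower, P4ha3, P3h2, Tll1, Itga1, Itga2, Itga11 and Mrc2 were under the floor on both ESC arrays. They entered through the MEF arrays and had to be lower in ESCs, so counts and medians of their lists are no support for a direction.

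The partners of type IV collagen in basement membranes did not follow it uniformly. Of 13 tested, 3 were higher in ESCs and 5 lower, where 16.7% of all genes tested were higher and 16.3% lower. Lama1, a laminin chain of the early embryo, had 944 and 819 units in 2i and S ESCs, against 222, 200.2 and 147 in 4n, 2n and control MEFs. It was 4.68-fold higher in ESCs (adjusted p = 0.0017 in limma), with no overlap. Lama5 (log2 2.69) and Lama3 (1.54) were the other laminin chain genes that were higher, while Lama4 (-4.18), Lama2 (-3.13) and Lamb2 (-1.55) were lower, as were Pxdn (-2.67), which crosslinks type IV collagen, and the perlecan gene Hspg2 (-1.21). Lama1 and Lama3 were under the floor on every MEF array, and Lama2 and Lama4 on both ESC arrays. The directions of these genes were thus fixed by how they entered. Lama5, Lamb2, Pxdn and Hspg2 reached the floor on all 5 arrays. Agrn (1.75, adjusted p = 0.0842 in limma) and Nid2 (1.06, adjusted p = 0.123) did not pass the test. Nid1 (-0.58), Lamb1 (-0.44) and Lamc1 (0.26) lay within 2-fold.

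**Figure D3:**
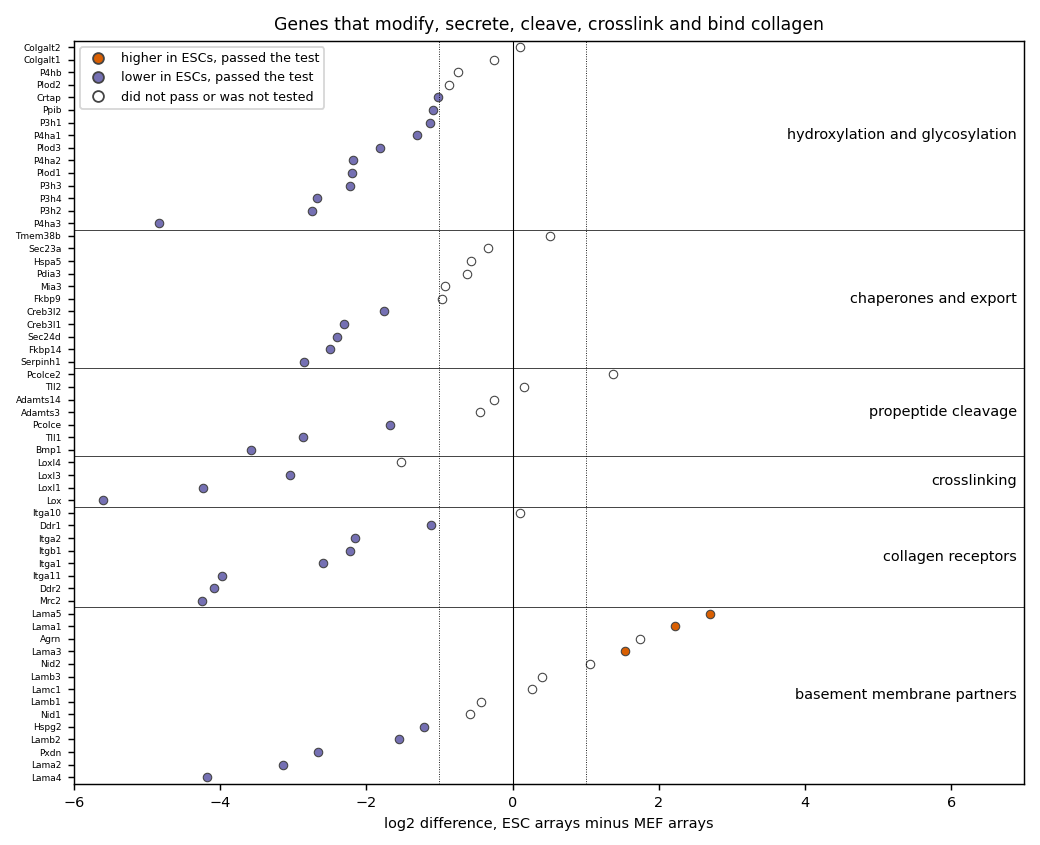
Log2 difference of ESC arrays minus MEF arrays for genes of 6 collagen-related lists (rows), with dotted lines at 2-fold. Filled symbols passed the test in limma, and the 3 that were higher in ESCs are the laminin genes Lama5, Lama1 and Lama3.

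The 2i ESCs were set against the S ESCs with 1 array each, so differences are described by a threshold of 2-fold with no test. Of 15 members that reached the floor on the brighter ESC array, 1 was lower on the 2i array by 2-fold or more and none was higher. Among all 10458 genes compared, 2.54% were lower and 2.79% higher by that much. The gene was Col8a1, at 123 units in 2i ESCs against 264 in S ESCs (log2 -1.09). It was under the floor on the 2i array and entered through the S array, so it had to be lower in 2i ESCs. The type I chain genes were dimmer on the 2i array by less than 2-fold, with log2 differences of -0.55 for Col1a1 and -0.63 for Col1a2. Col12a1 had a difference of -1.12 but was under the floor on both ESC arrays.

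Type IV chains went the other way, with log2 differences of 0.48 for Col4a1 and 0.46 for Col4a2 in 2i minus S ESCs. Of 10 endoderm markers (primitive and parietal endoderm secrete much type IV collagen), 5 passed the floor here, with Srgn (1.15) higher and Dab2 (-2.02) lower by at least 2-fold. Over all genes compared, 2.79% were that much higher and 2.54% that much lower. Dab2 was under the floor on the 2i array and entered through the S array, so it had to be lower in 2i ESCs. The summed intensity of the 10 markers was 3224 units in 2i ESCs and 2673 in S ESCs. Srgn alone gave 1368 units in 2i ESCs and 618 in S ESCs, a larger gap than that of the sum. The part of these markers in the type IV values was not tested. By any amount, 10 of the 15 members were brighter on the 2i array and 5 on the S array, with a median of 0.17 against -0.04 over all genes. The 5 were Col1a1, Col1a2, Col6a1, Col8a1 and Col18a1. Of all 10458 genes compared, 4712 were brighter on the 2i array and 5739 on the S array. Only 9 members reached the floor on both ESC arrays. Col4a2, Col11a2, Col20a1 and Col27a1 reached it on the 2i array alone, and Col6a1 and Col8a1 on the S array alone. That fixed their directions, so neither the counts nor the median is support for a direction. The gene with the largest difference toward 2i was Col20a1, at 265 units in 2i ESCs against 143 in S ESCs (log2 0.88).

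Of the 14 collagen chain genes that were lower in ESCs than in MEFs, 10 had a dimmer value on the 2i than on the S array. The other 4 were Col4a1, Col4a2, Col4a5 and Col5a1. Of the 14, 7 were under the floor on both ESC arrays, where values hold an unknown share of background. Of all 10458 genes past the floor here, 5739 were dimmer on the 2i array by any amount. Expressed as a share of the control MEF intensity, the excess on the S array ran from -7.69% (Col4a1) to 2.35% (Col8a1), with a median of 0.993%. Beside this, 12 of 12 fibroblast markers lower in ESCs were brighter on the S array. Their excess lay between 0.327% (Twist1) and 9.79% (Vim), with a median of 1.15%. Of these markers Pdgfra, Lum, Postn, Twist1, Twist2 and S100a4 were under the floor on both ESC arrays. Dcn, Prrx1 and Cdh11 reached it on the S array alone, so they had to be brighter there. The summed intensity of the 13 fibroblast markers was 8102 units in 2i ESCs and 10900 in S ESCs. Their part in the collagen differences was not tested.

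Of 4 measured lysyl oxidase genes, which crosslink collagen, 3 were dimmer on the 2i array by at least 2-fold. Lox had 75.3 units in 2i ESCs against 709 in S ESCs (log2 -3.22), Loxl3 had 167 against 404 (-1.27), and Loxl1 had 164 against 349 (-1.08). The other one, Loxl4, was brighter on the 2i array, with 254 units in 2i ESCs against 198 in S ESCs (0.36). Each of the 4 was under the floor on its dimmer array and entered through the brighter one. Their directions were thus fixed, and the count is no support for a direction. Over all genes compared, 2.54% were lower on the 2i array by at least 2-fold. Creb3l1, a transcription factor gene of collagen secretion, had 550.2 units in 2i ESCs against 1128 in S ESCs (-1.03). None of 12 hydroxylation genes differed by 2-fold, and the nearest were Plod1 (-0.96) and P4ha1 (0.96).

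**Figure D4:**
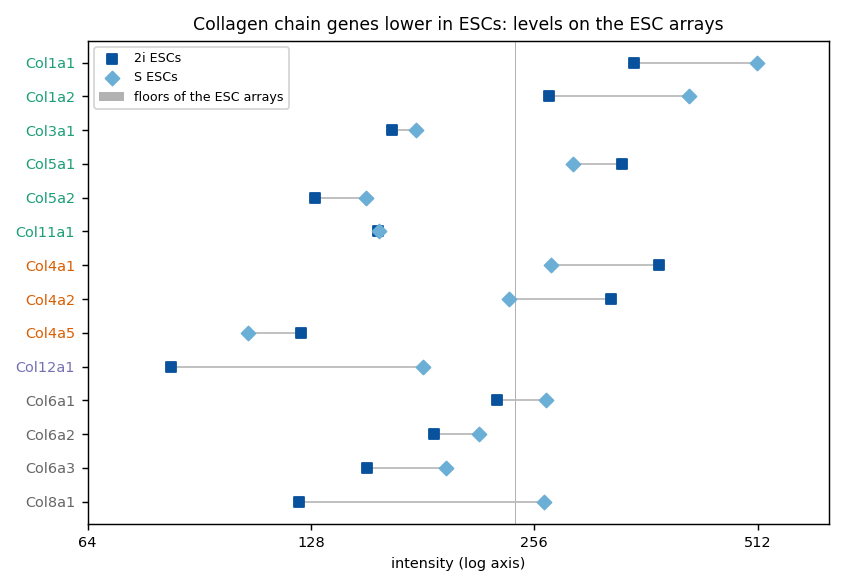
Intensities (log axis) of the 14 collagen chain genes lower in ESCs than in MEFs, on the 2i ESC and S ESC arrays, with the floors of these arrays marked. The 2i array is dimmer in 10 of 14 genes and brighter for Col4a1, Col4a2, Col4a5 and Col5a1.

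The 2i MEFs differed by 2-fold or more from control MEFs in few collagens. On the 4n array 6 of 31 members past the floor were at least 2-fold higher than on the control array and none lower, where 5.29% of 10270 genes were higher and 3.45% lower by that much. On the 2n array 3 of 29 were higher and none lower, where 1.50% of 10083 genes were higher and 0.426% lower. Of these genes Col10a1, Col14a1 and Col8a2 were under the floor on the control array and entered through the 2i MEF arrays, so they had to be higher there and the counts are no support for a direction. Both comparisons use the same control array. No difference between MEF arrays could be tested, with 1 array each.

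Col10a1 (Entrez Gene 12813), which encodes the type X chain that is the classic product of hypertrophic cartilage, differed most. It had 1914 units in 4n MEFs and 354 in 2n MEFs, against 144 in control MEFs. Its control value was under the floor and alike to the S ESC value of 146. Col10a1 was 13.2-fold higher on the 4n and 2.44-fold higher on the 2n array.

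The region before its start site is shown beside that of Col1a2, as the gene that moved most between MEF arrays and a gene bright on all of them. These windows are chr10:34389731-34390030 (plus strand) for Col10a1 and chr6:4505368-4505667 (plus strand) for Col1a2, from RefSeq with build GRCm38.p6. Capitals mark the same letters as before and also TATAAA, the TATA box, on either strand.
Col10a1: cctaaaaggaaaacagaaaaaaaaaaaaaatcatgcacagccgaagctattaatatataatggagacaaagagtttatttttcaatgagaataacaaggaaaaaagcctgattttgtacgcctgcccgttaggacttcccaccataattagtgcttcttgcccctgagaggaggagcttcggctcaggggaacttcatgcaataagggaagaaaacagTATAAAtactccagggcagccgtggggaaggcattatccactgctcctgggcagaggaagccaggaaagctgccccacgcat
Col1a2: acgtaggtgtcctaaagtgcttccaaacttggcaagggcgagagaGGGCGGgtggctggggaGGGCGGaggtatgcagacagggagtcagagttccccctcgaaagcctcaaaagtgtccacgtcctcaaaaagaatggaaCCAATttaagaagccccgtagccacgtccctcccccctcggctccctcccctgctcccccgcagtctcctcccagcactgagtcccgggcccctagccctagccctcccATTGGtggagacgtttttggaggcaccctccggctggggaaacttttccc

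Col10a1 held 1 TATAAA and no GGGCGG, at 44.3% G and C, while Col1a2 held 2 CCAAT and 2 GGGCGG and no TATAAA, at 61% G and C. RefSeq windows were found for 35 of the 44 members, 38 in number, from 250 bases before to 50 after each start. Of these windows 60.5% held GGGCGG, 34.2% CCAAT, 13.2% TATAAA and 2.63% TGANTCA (the AP-1 motif), read on both strands. Among all 32851 windows of the table the shares were 35.7%, 37.4%, 13.6% and 7.81%. No overlap between these motifs was removed, and the matches describe letters only.

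Col14a1 (Entrez Gene 12818) had 1991 units in 4n MEFs and 618 in 2n MEFs, against 205 in control MEFs. This made it 9.69-fold higher on the 4n and 3.01-fold higher on the 2n array. Col18a1 had 926 units in 4n MEFs and 538 in 2n MEFs, against 253 in control MEFs, which is 3.65-fold and 2.12-fold. With quantile normalization its difference on the 2n array was 0.99 in log2, just under 2-fold. All 3 genes thus had the highest value on the 4n array and the lowest on the control array.

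The genes Col3a1 (2.63-fold), Col11a1 (2.13-fold) and Col8a2 (2.10-fold) were at least 2-fold higher on the 4n array and not on the 2n array. Col3a1 had 4582 units in 4n MEFs and 3196 in 2n MEFs, against 1741 in control MEFs, and Col11a1 followed the same order. Col8a2, a type VIII chain gene, had 316 units in 4n MEFs and 148 in 2n MEFs, against 149.6 in control MEFs. It stood apart in being raised on the 4n array only, by a log2 difference of 1.07, or 0.98 with quantile normalization.

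Smaller differences had the same order in the type I and VI chains. The log2 differences from control MEFs were 0.46 on the 4n and 0.36 on the 2n array for Col1a1, and 0.52 and 0.36 for Col1a2. For Col6a1 they were 0.24 and 0.22, and for Col6a2 0.31 and 0.28. Col6a3 departed from its partners, at -0.21 on the 4n and 0.57 on the 2n array. Of the 31 members past the floor, 11 had the order 4n over 2n over control, 1 (Col7a1) the reverse, 11 another order, and 8 held identical values. Among the first 11, Col10a1 and Col14a1 were under the floor on the control array, and Col24a1 on the control and 2n arrays. Part of their order was thus fixed by how they entered. These orders were not counted over all genes, so the counts are no support for a direction.

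Several chains were nearly level across MEF arrays. For Col4a1, Col4a2, Col5a1, Col5a2 and Col12a1 all differences from control MEFs lay between -0.05 and 0.03 in log2, many of them from identical values. The deepest deficits were those of Col4a5, at -0.45 on the 2n and -0.28 on the 4n array, and of Col7a1, at -0.29 on the 4n array. The median over members was 0.09 on the 4n array and 0 on the 2n array, against -0.01 and 0 over all genes.

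Set directly against the 2n array, the 4n array had 3 of 31 members at least 2-fold higher and none lower, where 3.36% of 10251 genes were higher and 2.36% lower. They were Col10a1 (log2 2.43), Col14a1 (1.69) and Col8a2 (1.08). Col8a2 was under the floor on the 2n array and entered through the 4n array, so it had to be higher there. The count is therefore no support for a direction. Col6a3 had the lowest difference, -0.78.

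**Figure D5:**
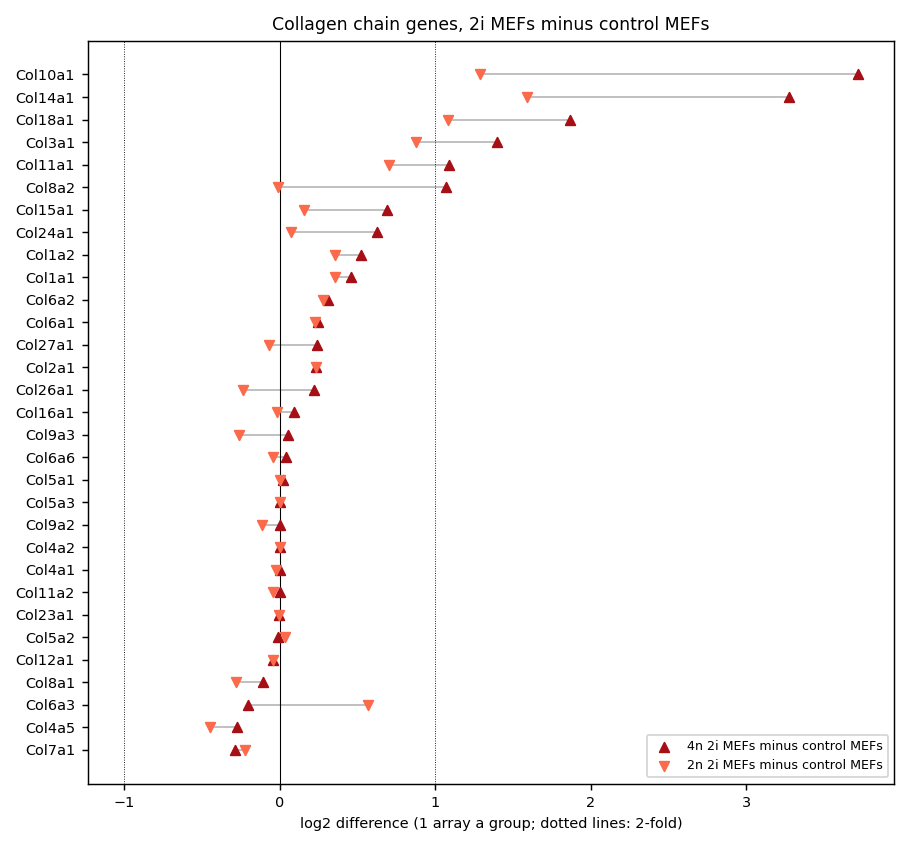
Log2 differences of the 4n and of the 2n 2i MEF array from the control MEF array for the 31 collagen chain genes past the floor (rows), with dotted lines at 2-fold. Both comparisons share the control array, and Col10a1, Col14a1 and Col18a1 lie past 2-fold in each.

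Other genes of the pathway moved less uniformly in the 4n MEFs. Over all genes compared, 5.29% were at least 2-fold higher on the 4n than on the control array and 3.45% lower. Among crosslinking genes Loxl4 (log2 -2.09) and Loxl3 (-2.03) were at least 2-fold lower than in control MEFs, while Loxl1 was 0.68 and Lox was identical on all MEF arrays. Among propeptide cleavage genes Pcolce2 (-2.93) and Tll1 (-2.53) were lower. Pcolce2, an enhancer of procollagen C-proteinase, had 171 units in 4n MEFs and 1003 in 2n MEFs, against 1311 in control MEFs. Its 4n value was under the floor, so the gene entered through the control array and had to be lower in 4n MEFs. The lysine hydroxylase gene Plod2 (1.17) and P3h3 (1.06), which belongs to the proline 3-hydroxylase family, were at least 2-fold higher. Among basement membrane partners Agrn (2.05), Nid2 (1.52) and Lama5 (1.48) were higher and Lama2 (-1.70) lower. On the 2n array only Lama2 (-1.01) among all these pathway genes passed 2-fold.

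Markers of some other cell types differed between the MEF arrays. Of 7 mesothelial markers, 6 were at least 2-fold higher on each 2i MEF array than on the control array. Over all genes compared, 5.29% were that much higher on the 4n and 1.50% on the 2n array. Upk3b, Lrrn4, Msln, Wt1 and Cbr2 were under the floor on the control array, so they had to be higher on the 2i MEF arrays. Upk1b was past the floor on every MEF array. The summed intensity of the 7 markers was 10158 units in 4n MEFs and 5776 in 2n MEFs, against 1741 in control MEFs. Of 8 macrophage markers, 5 passed the floor on the 4n array and all 5 were at least 2-fold higher there, with sums of 12463 units in 4n MEFs and 1351 in 2n MEFs, against 1736 in control MEFs. Of these 5, Csf1r, Adgre1 and Fcgr3 reached the floor among MEF arrays on the 4n array alone, so they had to be higher there. The leukocyte genes Ptprc and Itgam of this list were under the floor on every array. Of 5 measured Schwann and glial markers, 4 reached the floor on the 4n array and none on the other MEF arrays. These 4 thus had to be higher on the 4n array. Gfap and Foxd3 were at 243 units there, near the floor of 235. Foxd3 and Erbb3 were brighter on both ESC arrays than on any MEF array. The part of these cell type markers in the collagen differences was not tested.

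Cartilage and bone markers were mostly under the floor on the MEF arrays. Of 8 chondrocyte markers 1, the transcription factor gene Sox9, reached it there, at 1073 units in 4n MEFs and 1609.6 in 2n MEFs, against 1408 in control MEFs. The cartilage proteoglycan gene Acan was under the floor on every array, with 218 units in 4n MEFs and 155 in 2n MEFs, against 89.3 in control MEFs. All 5 measured osteoblast markers were under the floor on the MEF arrays. Of 7 skeletal muscle markers, 2 passed the floor between the 2i and control MEF arrays. Des was at 1339 units in 4n MEFs and 738 in 2n MEFs, against 96.3 in control MEFs. It was under the floor on the control array, so it had to be higher on the 2i MEF arrays. The other, Acta1, had log2 differences from control MEFs of -0.63 on the 4n and 0.06 on the 2n array. Summed fibroblast markers were 85517 units in 4n MEFs and 80253 in 2n MEFs, against 85931 in control MEFs. Single genes of that list differed between 4n and control MEFs, with Fap (log2 3.42) and Lum (2.92) higher and S100a4 (-2.48) lower by at least 2-fold. Over all genes compared, 5.29% were that much higher and 3.45% that much lower. Fap was under the floor on the control array, so it had to be higher on the 4n array.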

How the data were processed

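Total RNA from a spin-column kit was labelled with biotin for Affymetrix whole-transcript arrays, per the labels' protocols. For 28853 probe sets on 5 arrays the authors deposited linear intensity values. Their background correction and normalization are not given in the sources used here. Members and lists were chosen with earlier results of these data known.

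There were 21789 probe sets with 1 gene symbol, 1621 with several and 5443 without any. Symbols were updated by Entrez Gene number to RefSeq GRCm38.p6, which matched 21698. For genes with several probe sets the brightest was used. Genes entered a comparison when the brightest array reached its floor. The log2(intensity + 1) values were fitted with limma (lmFit and eBayes, 3 residual degrees of freedom, Benjamini-Hochberg over all genes) for ESCs minus MEFs, and pairs of arrays by a 2-fold threshold without a test. The fit was tested on simulated data. All members could be named, as could the pathway lists. Of a marker list, up to 4 genes per comparison could be named, and any marker needed to check a label. Some markers beyond these are named, mostly to say which were under the floor. Some genes of the lists, such as Fkbp10, Adamts2 and Loxl2, were not analysed here. The probe sets of Col6a5 and Col6a6, 2 each, were also averaged. Arrays have no sequencing depth, and their number limits the precision. Alternatives tried were quantile normalization, the floor removed or raised to the 75th percentile, a pseudocount of 16, probe sets averaged per gene, a 3-fold threshold, eBayes with trend and robust prior, and each array left out. Tools were Python 3.11.15, numpy 2.4.6, pandas 2.3.3, matplotlib 3.10.9, R 4.3.3 and limma 3.58.1.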

Additional observations from a re-analysis of the deposited data

How the results depend on the processing

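The count of 14 collagen chain genes lower in ESCs than in MEFs lay between 13 and 15 when each array was left out, and that of higher genes was 0 throughout. With a single ESC array left, that array was assumed to vary like the others. Col11a1 lost its call without either ESC array, and Col14a1 gained one without the control MEF array. The other settings gave 13 (floor at the 75th percentile) or 14 lower genes. Without genes whose MEF values repeated exactly on 2 or 3 arrays, an alternative chosen after seeing the data, 10 members were lower. In 2i minus S ESCs the count of lower members was 2 with no floor, 0 with the floor at the 75th percentile and 0 at 3-fold, against 1. In 2n 2i minus control MEFs the count of higher members was 0 with the floor at the 75th percentile and 1 at 3-fold, against 3. In 4n 2i minus control MEFs it was 3 at 3-fold, against 6. The 3-fold threshold keeps the same genes and raises the size a call needs, while the other floors admit other numbers of genes. No called difference changed sign under any alternative run. Quantile normalization moved the median of all genes by less than 0.1 in log2 in each comparison. No paired analysis was possible because each group had 1 array. Dim values near the floor limit what can be said of the 12 members under it on every array.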
